A study of Mus musculus with 6 samples.

Results

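The RNA levels of 43 DNA replication and mitosis genes were compared between mammary tumors of NeuT/ATTAC mice that had received either IgG or an antibody to PD-1. The genes were chosen by name, as cell cycle genes, and each was taken as the Ensembl gene ID that carries its symbol in the GRCm38 annotation. All 43 had exactly 1 such ID among the 54532 in the data. They comprise 16 replication genes (S phase), 25 mitosis genes (G2/M) and the 2 mitotic transcription factors Foxm1 and Mybl2. Each group has 3 libraries of tumor RNA, which the labels number as replicates. The mice of both groups carried the MMTV-NeuT transgene, in which the MMTV promoter drives activated rat Erbb2 in mammary epithelium, together with FAT-ATTAC, a transgene that lets the drug AP20187 ablate fat cells and so induce fibrosis. The controls therefore had fibrosis as well, and no tumor without it was measured here. AP20187 was given at 0.4 mg/kg from 6 weeks of age in both groups, biweekly by the sample labels and triweekly by the study's text. From 8 weeks of age the mice received 100 μg of the anti-PD-1 mAb (a monoclonal antibody) or of isotype IgG, 2 times per week. The study's text speaks of pooling tumor RNA within a group, but the deposited values are separate for each library, and whether a library holds the RNA of 1 tumor or of several is not given in the sources used here. Each library is called a tumor in what follows, and the p-values measure the spread between libraries, which may be technical.

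A dividing cell copies its DNA in S phase and separates the copies in mitosis, and the genes for each step are transcribed in successive waves. The first wave is driven by E2F factors and supplies the MCM helicase, its loading factors and the enzymes that make deoxynucleotides. The later wave is driven by the MuvB complex with Mybl2 and Foxm1 through CHR elements, and supplies the cyclins, kinases, motors and kinetochore proteins of mitosis. In bulk tumor RNA, fewer cycling cells and less of an RNA in each cycling cell cannot be told apart.

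The replication genes leaned higher in the anti-PD-1 group, but the tumors of a group differed so much that 1 of the 43 members passed an unadjusted test. The median log2 fold change of the 16 replication genes was 0.39, or 0.25 to 0.54 when each tumor was left out. All 16 were above 0. This count rests in part on single tumors, since it was 14 to 16 when each tumor was left out in turn, with Pcna, Rrm1, Gins2 or Cdt1 below 0 in some of these sets, and 15 with quantile normalization (Pcna below 0). The 25 mitosis genes had a median of 0.11, with 16 above 0 and 9 below, but without IgG replicate 2 or anti-PD-1 replicate 2 the median was -0.09 or -0.12, with 6 or 10 above 0. The median over all 15069 tested genes was 0.01, and 50.8% of them were above 0. Here a log2 fold change is the difference between the group means of log2(FPKM + 1), anti-PD-1 minus IgG, from a limma fit, and for genes of low FPKM it is smaller than the true fold. FPKM is the number of fragments on a gene scaled by the length of its exons and by the size of the library. Mcm2, a subunit of the replicative helicase, was the only member higher at an unadjusted p under 0.05, beside 6.22% of all tested genes. It was also the only member whose groups did not overlap in that direction, beside 9.3% of all tested genes. No member was lower at this threshold or non-overlapping in that direction, where the shares of all tested genes were 6.05% and 8.75%. No member was 1.5-fold different at that p (3.9% of all tested genes higher and 4.53% lower). No gene, member or not, had a limma adjusted p under 0.05 (0.0%), and the lowest over all genes was 0.0809. The share of members called higher (2.33%) rests on 1 gene, so its place under the share of all genes is no result about the members. Without anti-PD-1 replicate 3 the order turned, with 16.3% of members beside 4.38% of all genes. Single tumors weighed on nearly all of these values, as the log2 fold change of 40 of the 43 members turned or moved by over 1.5 times in at least 1 set without 1 tumor. The exceptions are Mcm2, Mcm3 and Mcm7.

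All 43 members exceeded a mean of 0.5 FPKM over the 6 tumors, the limit for testing, and none was near 0 in any tumor. For the 41 members whose values were whole multiples of 1 read in every tumor (within 0.1 of a whole number), between 109 and 8359 reads lay behind each value. The libraries held between 21075641 and 23852764 recovered reads, and a count of 3 reads over 2 kb of exon equals 0.0586 to 0.0682 FPKM, a floor for counting error only. The tissue label was borne out by its markers in each tumor, with Krt8 between 431 and 1041 FPKM, Krt18 between 685 and 1385 and Epcam between 690 and 1150, all epithelial genes. Some of these genes moved with the group. Epcam was at 885, 861 and 690 FPKM in the IgG tumors, against 988, 1150 and 1122 in the anti-PD-1 tumors, and Erbb2 was at 20.3 to 23.2 against 25.2 to 31.4, both higher without overlap, with log2 fold changes of 0.43 and 0.34 (unadjusted limma p of 0.0906 and 0.0613). Of the 6 epithelial markers, 4 were above 0 (median 0.34), while Cdh1 and Krt19 were below. Krt19 was lower without overlap, with a log2 fold change of -2.03. Its unadjusted limma p of 0.0471 was the only one of the 6 under 0.05. The summed FPKM of the 6 was 1914 to 2652 in the IgG and 2521 to 3648 in the anti-PD-1 group, highest in anti-PD-1 replicate 3. The median of these markers was near that of the replication genes, and their part in the replication difference was not tested. The summed FPKM of 4 skeletal muscle genes (Acta1, Ckm, Myh4 and Tnnt3) was 110, 62.6 and 116 in IgG replicate 2 and anti-PD-1 replicates 1 and 2, and at most 3.80 in the others. IgG replicate 2 also stood apart by Krt19, an epithelial keratin, at 77.9 FPKM against 1.70 to 7.84 elsewhere. Of 5 T cell markers, none reached the limit for testing, and their summed FPKM was 1.28 to 3.19 in the IgG and 0.20 to 1.55 in the anti-PD-1 group, with Cd3e, Cd3d and Trac at 0 in anti-PD-1 replicate 2. Of 5 macrophage markers, 1 (Cd68) was higher at an unadjusted p under 0.05, and their sum was 183 to 323 in the IgG and 240 to 383 in the anti-PD-1 group.

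The replication and the mitosis genes also differed in the short motifs of their promoters. Promoter sequence was not used to choose the members. The E2F and CHR letters are those of the successive waves described above, however, so that the contrast is not independent of the lists. RefSeq promoters on GRCm38.p6, from 250 bases before to 50 bases after the start of each gene, were at hand for 35 of the 43 members. They were searched on both strands for the E2F letters TTTCCCGC or TTTGGCGC or TTTCGCGC or TTTGCCGC, for the CHR letters TTTGAA or TTCGAA, for the CCAAT box, and for the Sp1 letters GGGCGG. E2F letters lay in 6 of 13 replication promoters (46.2%) and in 1 of 21 mitosis promoters (4.76%, Cdk1), compared with 2.32% of the 27025 promoters in the table. CHR letters lay in 17 of 21 mitosis promoters (81.0%) and in 3 of 13 replication promoters (23.1%), compared with 19.4% of all. Both CHR and CCAAT were present in 16 mitosis promoters (76.2%) and 3 replication promoters, against 7.7% of all. CCAAT alone was less selective, in 9 replication and 18 mitosis promoters and in 37.9% of all. Sp1 letters, in 10 and 18 promoters and in 35.9% of all, were likewise common to both lists. Many CHR matches of mitosis genes lay after the annotated start, since 8 of 21 mitosis promoters (38.1%) had one in the 250 bases before it, against 17.4% of all. In those 250 bases the lists differed less, as 3 of 13 replication promoters (23.1%) had CHR letters and 4 of 13 (30.8%) had E2F letters. A match is a run of letters and no evidence of binding.

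The promoters shown are the 3 replication and the 3 mitosis members with the most different motifs, ties going to the higher level. Each is the 250 bases before the start, read 5′ to 3′ along the gene, with E2F, CHR and CCAAT matches of either strand in capitals and matches that touch or overlap written as 1 run. The helicase genes Mcm7 and Mcm6 hold E2F letters and CCAAT boxes, Mcm7 holds a CHR as well, and Mcm2 holds a CHR and a CCAAT box without E2F letters. Cdk1, Mki67 and Ube2c each hold several CCAAT boxes and at least 1 CHR.
Mcm7 (chr5:138171884-138172133, minus strand): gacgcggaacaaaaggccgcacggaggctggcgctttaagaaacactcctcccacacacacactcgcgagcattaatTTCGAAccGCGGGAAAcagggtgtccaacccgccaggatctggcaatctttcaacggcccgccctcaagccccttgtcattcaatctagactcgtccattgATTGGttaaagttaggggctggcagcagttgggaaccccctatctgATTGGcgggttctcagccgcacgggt
Mcm6 (chr1:128359706-128359955, minus strand): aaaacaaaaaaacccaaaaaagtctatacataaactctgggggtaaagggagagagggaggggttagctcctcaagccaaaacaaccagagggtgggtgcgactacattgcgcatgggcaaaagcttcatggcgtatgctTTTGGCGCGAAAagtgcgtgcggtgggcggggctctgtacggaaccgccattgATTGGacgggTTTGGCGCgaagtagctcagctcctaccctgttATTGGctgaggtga
Mcm2 (chr6:88898781-88899030, minus strand): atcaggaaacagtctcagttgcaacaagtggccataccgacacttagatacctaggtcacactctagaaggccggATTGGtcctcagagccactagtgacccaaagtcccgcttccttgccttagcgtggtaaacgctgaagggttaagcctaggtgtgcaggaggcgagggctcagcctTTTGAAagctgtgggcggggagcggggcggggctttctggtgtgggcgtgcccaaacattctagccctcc
Cdk1 (chr10:69352913-69353162, minus strand): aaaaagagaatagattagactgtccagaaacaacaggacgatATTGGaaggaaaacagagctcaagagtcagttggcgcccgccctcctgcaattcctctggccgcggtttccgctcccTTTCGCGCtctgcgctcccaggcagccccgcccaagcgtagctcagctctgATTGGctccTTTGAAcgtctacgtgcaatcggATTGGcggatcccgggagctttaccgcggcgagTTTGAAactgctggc
Mki67 (chr7:135716380-135716629, minus strand): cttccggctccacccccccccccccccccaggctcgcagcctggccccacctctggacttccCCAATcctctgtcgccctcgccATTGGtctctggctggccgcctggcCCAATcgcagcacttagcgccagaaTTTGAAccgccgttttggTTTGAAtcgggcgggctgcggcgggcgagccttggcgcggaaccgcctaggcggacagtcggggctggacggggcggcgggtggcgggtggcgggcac
Ube2c (chr2:164769679-164769928, plus strand): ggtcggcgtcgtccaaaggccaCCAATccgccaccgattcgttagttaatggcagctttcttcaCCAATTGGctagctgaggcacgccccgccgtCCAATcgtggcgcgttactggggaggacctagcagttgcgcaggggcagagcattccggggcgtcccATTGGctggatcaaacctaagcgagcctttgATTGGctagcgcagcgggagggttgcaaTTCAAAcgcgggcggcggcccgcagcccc

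Of the 6 subunits of the MCM helicase, which unwinds DNA at the replication fork, all had a log2 fold change above 0, between 0.35 and 0.55 with a median of 0.49. Mcm2 (chr6:88883474-88898780) stood at 6.65, 4.35 and 6.41 FPKM in the IgG tumors, against 9.94, 9.57 and 7.15 in the anti-PD-1 tumors (replicates 1, 2 and 3, in this order throughout). Every anti-PD-1 tumor was above every IgG tumor. The log2 fold change was 0.55 ± 0.21 (SE, n = 3 a group), or 1.46-fold on the log2(FPKM + 1) scale, with an unadjusted limma p of 0.0322 and an adjusted p of 0.378. The exact permutation p of 0.1 is the smallest that 3 tumors against 3 can give. Without IgG replicate 2, anti-PD-1 replicate 1 or anti-PD-1 replicate 2, the log2 fold change of Mcm2 was 0.38, 0.47 or 0.50, with an unadjusted limma p of 0.1099, 0.0996 or 0.0866. With the replicate number as a block, the p was 0.0510 and no member was called, beside 6.09% of all tested genes higher.

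Mcm7 (chr5:138164583-138172422) was at 21.3, 14.8 and 16.6 FPKM in the IgG tumors, against 24.3, 32.0 and 20.3 in the anti-PD-1 tumors. Its groups overlapped through 1 tumor, anti-PD-1 replicate 3, which lay below IgG replicate 1. Its log2 fold change was 0.51 ± 0.22 (SE, n = 3 a group) with an unadjusted limma p of 0.0502, just outside the threshold. It was 0.0489 with no filter on low FPKM and 0.0444 with voom on the recovered reads. The gene contains the microRNA genes Mir25, Mir93 and Mir106b and overlaps Cops6 and Ap4m1 on the other strand. Reads of these cannot be fully separated from its own where the genes overlap. Mcm3 was at 13.5, 8.86 and 11.8 FPKM in the IgG tumors, against 18.3, 22.1 and 11.8 in the anti-PD-1 tumors. Mcm4 was at 13.8, 10.8 and 11.3 in the IgG tumors, against 16.5, 21.6 and 12.2 in the anti-PD-1 tumors. Mcm6 was at 17.5, 16.8 and 22.1 in the IgG tumors, against 31.2, 31.7 and 17.99 in the anti-PD-1 tumors. In each of these subunits, anti-PD-1 replicates 1 and 2 were above all IgG tumors and anti-PD-1 replicate 3 was within their range. Their unadjusted limma p-values were 0.0694, 0.0949 and 0.0999. Without anti-PD-1 replicate 3, 7 members had an unadjusted limma p under 0.05: Mcm2, Mcm3, Mcm4, Mcm6, Mcm7, Cdc45 and Birc5. These are 16.3% of the members, beside 4.38% of all genes tested in that fit. Without IgG replicate 2, anti-PD-1 replicate 1 or anti-PD-1 replicate 2, no member was higher at that p, beside 3.31%, 5.78% or 5.46% of all genes. Without IgG replicate 1 or 3, 3 and 2 members were, beside 8.41% and 4.99% of all genes.

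Mcm5, the subunit on chromosome 8, did not follow the others in 1 tumor. It was at 12.0, 8.66 and 14.0 FPKM in the IgG tumors, against 20.3, 11.8 and 13.3 in the anti-PD-1 tumors, and anti-PD-1 replicate 2, the highest tumor for Mcm3, Mcm4, Mcm6 and Mcm7, lay below the IgG replicates 1 and 3. The subunits form a ring in equal numbers, but their RNA levels per length were unequal in every tumor, with Mcm2 the lowest and Mcm6 or Mcm7 the highest. The highest was between 2.84 and 3.86 times the lowest. The place of Mcm2 depends on its length, as its merged exons span 6956 bases against 3589 to 4666 for the other subunits, and by recovered reads alone Mcm2 was the lowest in IgG replicates 1 and 2 and in no other tumor. Summed over the 6 subunits, the level was 84.8, 64.3 and 82.3 FPKM in the IgG tumors, against 121, 129 and 82.7 in the anti-PD-1 tumors. Anti-PD-1 replicates 1 and 2 were above all IgG tumors, and replicate 3 lay among them.

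**Figure D1:**
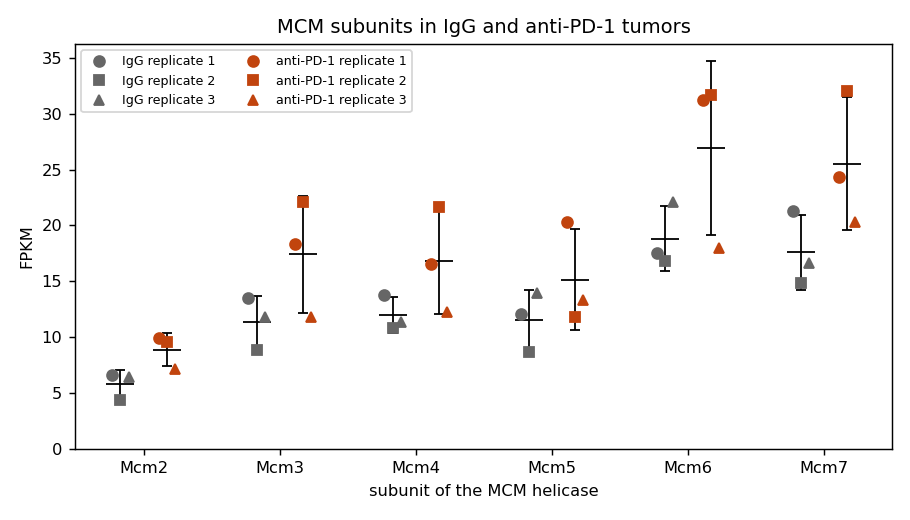
FPKM of the 6 MCM helicase subunits in each tumor (y axis), with IgG tumors in gray and anti-PD-1 tumors in orange. Horizontal marks are group means and bars are SDs (n = 3). Only for Mcm2 is every anti-PD-1 tumor (7.15 to 9.94) above every IgG tumor (4.35 to 6.65).

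The other replication genes had log2 fold changes from 0.02 to 0.66, and none passed the unadjusted test. Pcna, the sliding clamp of the DNA polymerases, was the most abundant member at a mean of 72.9 FPKM, above 96.0% of the tested genes. It was at 76.8, 68.3 and 71.1 FPKM in the IgG tumors, against 71.6, 89.3 and 60.0 in the anti-PD-1 tumors, and its log2 fold change of 0.02 (95% interval -0.42 to 0.46) was the lowest of the 16. The group ranges overlapped fully, as both the highest and the lowest tumor were anti-PD-1. Pcna has the processed copies Pcna-ps1 and Pcna-ps2, whose reads may be shared with it.

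Among the genes of deoxynucleotide synthesis, Rrm2, the regulated subunit of ribonucleotide reductase, had the highest log2 fold change of all members, 0.66 (95% interval -0.12 to 1.45). Without single tumors it was 0.35 (IgG replicate 2) to 0.95 (IgG replicate 3), and Cdc45 was the highest in 3 of the 6 sets. It was at 17.2, 10.5 and 25.2 FPKM in the IgG tumors, against 37.0, 24.6 and 21.2 in the anti-PD-1 tumors. The groups overlapped, with IgG replicate 3 above anti-PD-1 replicates 2 and 3, and the limma p was 0.0868. Its partner Rrm1 was at 8.38 to 11.2 FPKM in the IgG tumors, against 8.87 to 15.99 in the anti-PD-1 tumors, with a log2 fold change of 0.17. Tyms, which makes thymidylate, was at 4.69 to 7.30 FPKM in the IgG tumors, against 6.83 to 10.2 in the anti-PD-1 tumors, with a log2 fold change of 0.42 (limma adjusted p = 0.464). Tyms also has a pseudogene copy, Tyms-ps.

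The factors that load and fire the helicase were lower in level and less uniform. Cdc45, which joins MCM and GINS in the active helicase, was at 3.80, 2.28 and 2.79 FPKM in the IgG tumors, against 3.97, 7.86 and 3.33 in the anti-PD-1 tumors. Anti-PD-1 replicate 2 was the highest by far, and the log2 fold change was 0.56 (limma adjusted p = 0.478), or 0.25 without that tumor. Cdc6, a loader of MCM at origins and the least abundant member at a mean of 2.04 FPKM, had a log2 fold change of 0.28. Cdt1, the other loader, was at 3.46 to 4.55 FPKM in the IgG tumors, against 3.18 to 6.13 in the anti-PD-1 tumors, with a log2 fold change of 0.06. The GINS subunits Gins1 and Gins2 had log2 fold changes of 0.13 and 0.05, with limma p-values of 0.589 and 0.825. E2f1, the transcription factor of S-phase genes, was at 4.35, 2.89 and 5.03 FPKM in the IgG tumors, against 5.60, 7.01 and 3.04 in the anti-PD-1 tumors, a log2 fold change of 0.26 (limma adjusted p = 0.745).

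The mitosis genes spanned the group difference in both directions, from -0.40 for Ccnb2 to 0.46 for Aurka on the log2 scale, and none passed the unadjusted test, the lowest limma p being 0.173 (Birc5). Cdk1, the kinase that drives entry into mitosis, was at 18.3, 10.7 and 10.6 FPKM in the IgG tumors, against 16.03, 20.9 and 12.5 in the anti-PD-1 tumors. Its partner cyclins Ccna2, Ccnb1 and Ccnb2 had log2 fold changes of 0.05, 0.13 and -0.40. Ccnb2 was at 15.3, 13.2 and 27.8 FPKM in the IgG tumors, against 19.9, 14.2 and 8.03 in the anti-PD-1 tumors. The IgG tumors held the highest Ccnb2 value (replicate 3) and an anti-PD-1 tumor the lowest (replicate 3), and the 95% interval of the difference ran from -1.28 to 0.48. The pseudogenes Ccnb1-ps and Ccnb2-ps may share reads with these cyclins.

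Mki67, the antigen Ki67 that coats mitotic chromosomes and is widely stained as a proliferation marker, was at 26.3, 17.6 and 34.0 FPKM in the IgG tumors, against 20.8, 26.5 and 16.3 in the anti-PD-1 tumors. The groups overlapped, with the highest tumor in IgG and the lowest in anti-PD-1. Its log2 fold change was -0.25 (95% interval -0.90 to 0.40, limma adjusted p = 0.734), opposite in sign to the median of the replication genes. Top2a, the topoisomerase that untangles sister chromosomes, was at 20.2, 12.2 and 15.3 FPKM in the IgG tumors, against 17.6, 25.2 and 11.4 in the anti-PD-1 tumors, a log2 fold change of 0.14.

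Of the mitosis genes grouped by role, the mitotic kinases had the highest median log2 fold change, 0.36, which was 0.10 without IgG replicate 2. Aurka, the kinase of the spindle poles, was at 9.21, 4.74 and 12.5 FPKM in the IgG tumors, against 10.9, 16.5 and 8.77 in the anti-PD-1 tumors, and its log2 fold change of 0.46 had a 95% interval of -0.37 to 1.28. Aurkb, the kinase of the chromosomal passenger complex, and Plk1, which acts from centrosome to midbody, each had a log2 fold change of 0.36. For all 3 kinases IgG replicate 2 was the lowest tumor. The checkpoint kinases Bub1, Bub1b and Ttk, which delay anaphase until the chromosomes are attached, had log2 fold changes of 0.11, 0.24 and -0.20. Cdc20, the activator of the anaphase-promoting complex, was at 16.3, 14.1 and 29.5 FPKM in the IgG tumors, against 20.1, 21.5 and 10.8 in the anti-PD-1 tumors, a log2 fold change of -0.16. Ube2c, the E2 enzyme of the same complex, was at 21.4, 9.47 and 22.1 FPKM in the IgG tumors, against 25.4, 24.99 and 13.5 in the anti-PD-1 tumors, a log2 fold change of 0.30. Ube2c overlaps the muscle troponin gene Tnnc2 on the other strand, and the summed skeletal muscle genes were at 110 FPKM in IgG replicate 2, where Ube2c was lowest, and at 62.6 and 116 FPKM in anti-PD-1 replicates 1 and 2, where it was highest. The part of Tnnc2 reads in these values was not tested.

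The 6 motors and spindle proteins had a median log2 fold change of 0.04, with 3 above 0 and 3 below. Kif11, the motor that pushes the spindle poles apart, had a log2 fold change of -0.02 (95% interval -0.69 to 0.65). Kif20a and Kif23, kinesins of cytokinesis, had values of 0.27 and -0.11. Tpx2, an activator of Aurka, Nusap1, which binds spindle microtubules, and Prc1, which bundles them at the midzone, had values of 0.09, -0.16 and 0.18. At the centromere, the log2 fold change was 0.41 for Cenpa (the centromeric histone), -0.09 for Cenpe (a kinetochore motor), -0.07 for Cenpf (a kinetochore protein) and 0.06 for Ndc80 (which grips the microtubules). Birc5, the survivin subunit of the passenger complex, was at 8.87, 5.77 and 7.74 FPKM in the IgG tumors, against 10.2, 15.99 and 6.81 in the anti-PD-1 tumors, a log2 fold change of 0.45. Reads of Nusap1 and Oip5, of Cdc20 and Elovl1, of Ccna2 and Exosc9, of Kif20a and Cdc23 and of Cdc45 and Ufd1 cannot be fully separated where these genes overlap, and the same holds for Gins2 and Cdt1 with their overlapping transcripts.

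Of the mitotic transcription factors, Mybl2, the B-Myb protein that joins MuvB, was at 2.52, 0.981 and 2.22 FPKM in the IgG tumors, against 3.86, 3.43 and 2.19 in the anti-PD-1 tumors. Anti-PD-1 replicates 1 and 2 were above all IgG tumors and replicate 3 was not. Its log2 fold change was 0.54 ± 0.28 (SE, n = 3 a group), with a limma p of 0.0943. Mybl2 varied most of all members between tumors, by 3.94 times from the lowest to the highest. Foxm1, the forkhead factor of G2/M genes, was at 4.26, 1.90 and 5.37 FPKM in the IgG tumors, against 5.35, 4.35 and 3.37 in the anti-PD-1 tumors, a log2 fold change of 0.21 (limma adjusted p = 0.816).

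**Figure D2:**
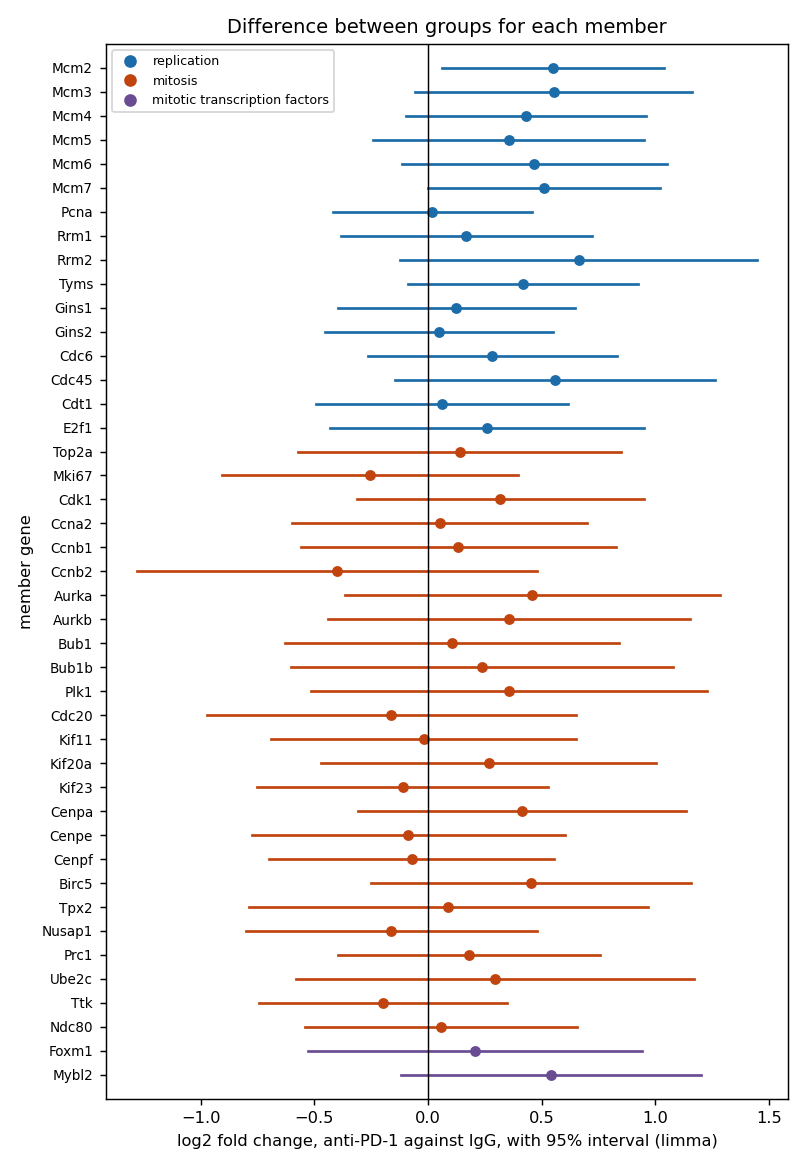
Log2 fold change of each member, anti-PD-1 minus IgG (x axis), with its 95% interval from limma (bars, n = 3 a group). Replication genes are in blue, mitosis genes in orange and the mitotic transcription factors in purple, and the interval of Mcm2 (0.06 to 1.04) is the only one that does not include 0.

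Within each group the tumors differed as much as the groups did, and most members moved together from tumor to tumor. IgG replicate 2 was the lowest tumor for 26 of the 43 members and anti-PD-1 replicate 3 for 15. Anti-PD-1 replicate 2 was the highest tumor for 27 members, anti-PD-1 replicate 1 for 8, IgG replicate 3 for 6 and IgG replicate 1 for 2. Each group thus held 1 tumor that was low for most members. The highest FPKM of a member was between 1.49 (Pcna) and 3.94 (Mybl2) times its lowest, with a median of 2.17 for replication and 2.34 for mitosis genes.

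**Figure D3:**
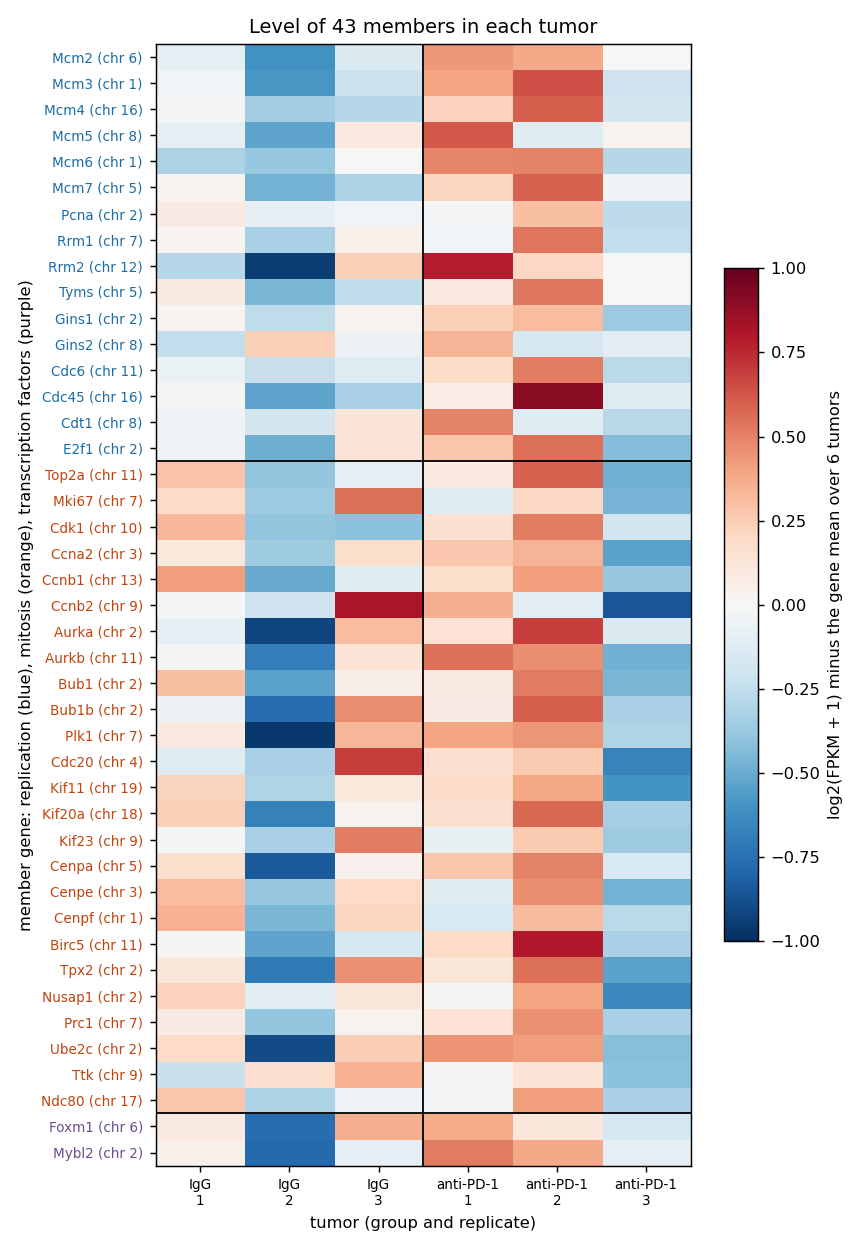
Level of each member (rows, with its chromosome) in each tumor (columns), as log2(FPKM + 1) minus the mean of that gene over the 6 tumors (color, red above and blue below the mean, clipped at 1). IgG replicate 2 and anti-PD-1 replicate 3 are blue for most members, and anti-PD-1 replicate 2 is red for 13 of 16 replication and 24 of 25 mitosis genes.

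To compare S-phase with G2/M genes in each tumor, log2(FPKM + 1) minus the mean of the gene over the 6 tumors was averaged over each list, and the average is called its level. In IgG replicates 1, 2 and 3 the replication level was -0.06, -0.39 and -0.07, against 0.30, 0.38 and -0.17 in the anti-PD-1 replicates 1, 2 and 3. The mitosis level was 0.14, -0.49 and 0.20 in the IgG tumors, against 0.14, 0.42 and -0.42 in the anti-PD-1 tumors. Of the 16 replication genes, 6, 1 and 6 were above their own mean in the IgG tumors, against 14, 13 and 4 in the anti-PD-1 tumors. Of the 25 mitosis genes these counts were 19, 1 and 20 against 19, 24 and 0. In both lists IgG replicate 2 and anti-PD-1 replicate 3 were below 0 and anti-PD-1 replicates 1 and 2 above it, while IgG replicates 1 and 3 were below 0 for replication and above it for mitosis. The replication level was 0.34 higher in the anti-PD-1 group, at -0.17 ± 0.19 for IgG and 0.17 ± 0.30 for anti-PD-1 (SD, n = 3 each). The mitosis level was 0.10 higher, at -0.05 ± 0.38 and 0.05 ± 0.43. Both differences came with overlapping groups, and the second was smaller than the SD of either group. The mitosis difference turned to -0.13 if IgG replicate 2 was left out and to -0.08 if anti-PD-1 replicate 2 was, and over all leave-one-out sets the replication difference stayed between 0.23 and 0.52.

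The replication level minus the mitosis level of the same tumor removes what both lists share. It was -0.20, 0.10 and -0.27 in the IgG tumors, against 0.16, -0.04 and 0.25 in the anti-PD-1 tumors. Of the IgG tumors, replicates 1 and 3 had more mitosis than replication RNA relative to the other tumors, and of the anti-PD-1 tumors, replicates 1 and 3 had the reverse. The groups overlapped through replicate 2 of each, since IgG replicate 2 lay above anti-PD-1 replicate 2. The group means were -0.12 ± 0.20 and 0.12 ± 0.15 (SD, n = 3 each), a difference of 0.24. The difference kept its sign without each tumor in turn, between 0.17 and 0.35. The wider lists of 62 other replication and 85 other mitosis genes did not show it. There the same quantity was -0.09, 0.21 and -0.09 in the IgG tumors, against 0.00, -0.05 and 0.02 in the anti-PD-1 tumors, with group means of 0.01 ± 0.17 and -0.01 ± 0.04 (SD, n = 3 each) and a difference of -0.02. That difference rests on IgG replicate 2, the highest tumor there, as IgG replicates 1 and 3 lay below every anti-PD-1 tumor. It was not computed without single tumors. These values have no test, because the genes were chosen with earlier results of these data known.

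**Figure D4:**
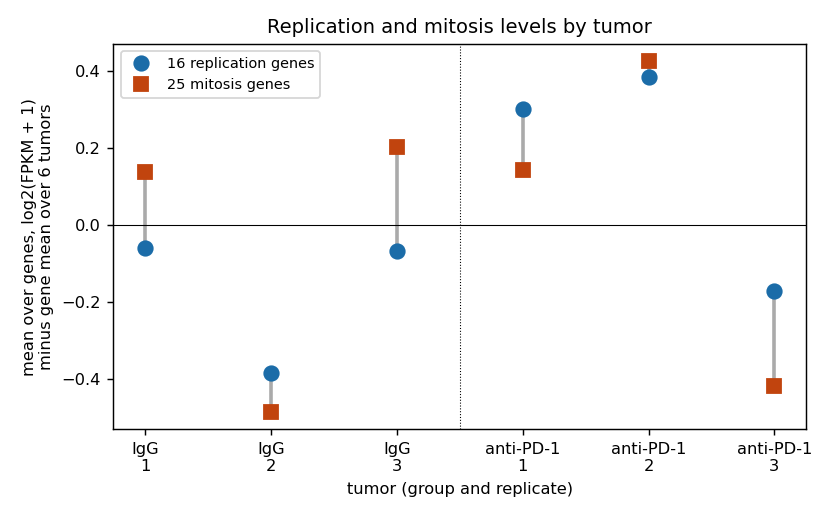
Replication level (16 genes, blue circles) and mitosis level (25 genes, orange squares) in each tumor, as the mean over genes of log2(FPKM + 1) minus the gene mean over the 6 tumors (y axis). Gray lines join both levels of a tumor, and the blue circle lies below the orange square in IgG replicates 1 and 3 (differences of -0.20 and -0.27) and above it in anti-PD-1 replicates 1 and 3 (0.16 and 0.25).

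The members also differed by the chromosome on which they lie. The tested genes of chromosomes 4 and 9 had a median log2 fold change -0.41 and -0.36 from that of all genes, and 83.0% of them were below 0, compared with 44.9% of genes elsewhere. The 4 members on these chromosomes are the mitosis genes Cdc20 (chromosome 4), Ccnb2, Kif23 and Ttk (chromosome 9). All 4 had a log2 fold change below 0, with a median of -0.18, compared with 5 of the 39 members elsewhere. Without IgG replicate 3 or anti-PD-1 replicate 3, 2 of the 4 were below 0, with a median of 0.02 or 0.00. No replication member lies on either chromosome. With these 4 genes left out, the mitosis difference between the groups was 0.16 in place of 0.10, and the difference of replication minus mitosis was 0.18 in place of 0.24.

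In single tumors the members followed the shift of their chromosome in some cases and not in others. In IgG replicate 3 the median of all tested genes, relative to the mean over tumors, was 0.33 above that of all genes on both chromosome 4 and chromosome 9. There Cdc20 lay 0.63 above the mitosis genes outside the shifted chromosomes, and Ccnb2, Kif23 and Ttk lay 0.49 above. In IgG replicate 2 the shift was 0.37 and 0.33, and the same genes lay 0.18 and 0.38 above. In anti-PD-1 replicate 1 chromosome 4 had a shift of -0.16, but Cdc20 lay 0.02 above the other mitosis genes. Of the 6 members whose highest tumor was IgG replicate 3, 4 are these genes, while Mki67 and Foxm1 lie on chromosomes 7 and 6, which had no such shift there. Chromosomes 2 and 8 were picked after the values were seen, as those with members and a shift of at least 0.15 in some tumor. In anti-PD-1 replicate 2 the chromosome 8 genes had a shift of -0.29, and its replication genes Mcm5, Gins2 and Cdt1 had a difference of -0.67 from the 10 replication members outside the shifted chromosomes. The non-member replication genes of chromosome 8 (Orc6, Gins3, Gins4, Rnaseh2a and Asf1b) had a difference of -0.56 in that tumor. Elsewhere the chromosome 8 members followed less closely, with a difference of 0.02 at a shift of 0.14 in anti-PD-1 replicate 3 and of 0.33 at a shift of 0.03 in IgG replicate 2. In IgG replicate 3 chromosome 2 had a shift of 0.20, and its 6 mitosis members lay 0.21 above those elsewhere. With the members of chromosomes 2, 4, 8 and 9 left out, the replication difference between the groups was 0.46, the mitosis difference 0.15 and their difference 0.31. The cause of the chromosome shifts, and their part in the differences between the groups, was not tested.

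**Figure D5:**
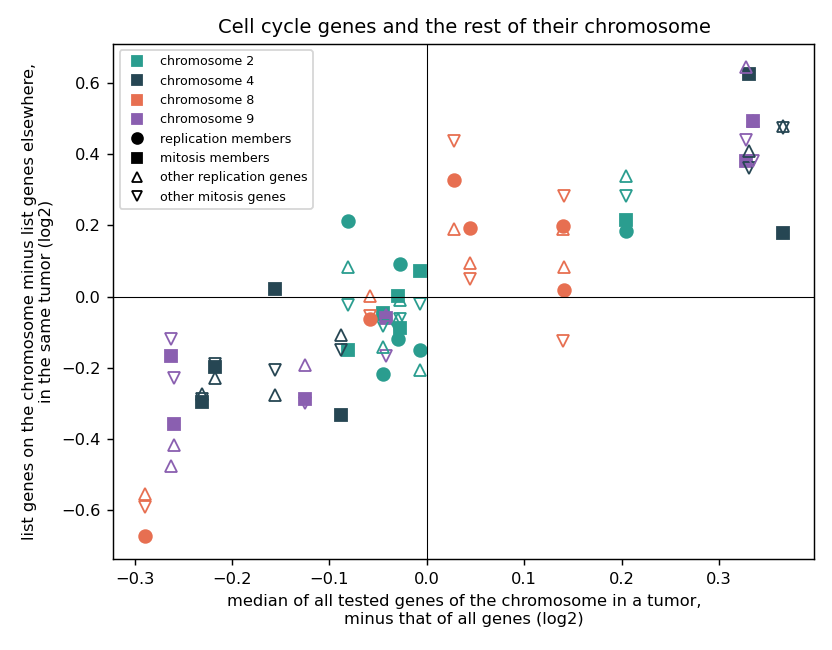
Each point is 1 list of genes on 1 chromosome in 1 tumor. The x axis gives the shift of all tested genes of that chromosome in the tumor, and the y axis the mean level of the list's genes on the chromosome minus that of its genes outside the shifted chromosomes (both log2). Filled points are members and open points other cell cycle genes, and the chromosome 8 replication members in anti-PD-1 replicate 2 are the lowest filled point (-0.29, -0.67).

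The other genes of the pathway were read from lists of 62 further replication genes, 85 further mitosis genes and 18 genes of the E2F, pocket protein and MuvB families. Of the 62 replication genes, 3 were higher and 2 lower at an unadjusted limma p under 0.05, beside 6.22% and 6.05% of all tested genes, with a median log2 fold change of 0.16 and 47 above 0. Of the 85 mitosis genes, 6 were higher and 2 lower, with a median of 0.15 and 61 above 0. Without IgG replicate 2, 1 of these 85 was higher and 34 were above 0, beside 3.31% and 49.4% of all genes. Their median was then -0.06. Of the replication genes, 40 to 54 were above 0 when each tumor was left out. The counts of genes called higher or lower are near or under the shares of all genes, so that the genes named from them are examples and no result about the lists. With all 6 tumors, the medians of these wider lists lay closer together (0.16 and 0.15) than those of the members (0.39 and 0.11). Without IgG replicate 2 the medians were 0.07 and -0.06 for the wider lists, and 0.26 and -0.09 for the members. None of the genes of these lists had a limma adjusted p under 0.05.

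Of these replication genes, Tk1, the thymidine kinase of nucleotide salvage, was at 11.7, 6.42 and 8.58 FPKM in the IgG tumors, against 13.6, 20.2 and 13.8 in the anti-PD-1 tumors, without overlap, and its log2 fold change was 0.79 (limma adjusted p = 0.355). Pold2, a subunit of DNA polymerase delta, and Rfc2, of the complex that loads the clamp, were also higher without overlap, with log2 fold changes of 0.52 and 0.50, the latter 0.30 without anti-PD-1 replicate 2. Orc3, a subunit of the origin recognition complex, was lower without overlap, with a log2 fold change of -0.77 (limma adjusted p = 0.346). The other lower gene, Pole3, a subunit of DNA polymerase epsilon, is named here after its values were seen, since its groups overlapped. Both lower genes lie on chromosome 4.

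Of the mitosis genes, Ncapd2, a condensin subunit, was at 14.1, 4.60 and 13.2 FPKM in the IgG tumors, against 17.2, 32.2 and 21.4 in the anti-PD-1 tumors, with a log2 fold change of 1.17 (limma adjusted p = 0.370), or 0.70 without IgG replicate 2. Ube2s, the E2 enzyme that extends ubiquitin chains for the anaphase-promoting complex, Mad1l1, a spindle checkpoint protein, and Gtse1, a microtubule-associated protein of G2 and S phase, were higher without overlap by 0.57, 0.47 and 0.97 on the log2 scale, and Gtse1 by 0.61 without IgG replicate 2. Gtse1 lies on chromosome 15, whose genes had a shift of 0.34 in anti-PD-1 replicate 3, the tumor with the highest Gtse1 (13.7 FPKM). Kif2c, a microtubule-depolymerizing kinesin on chromosome 4, was lower without overlap, with a log2 fold change of -0.56 (limma adjusted p = 0.397), or -0.38 without anti-PD-1 replicate 3. Cks1b, which binds Cdk complexes, and Cdca3 were the other higher genes, with log2 fold changes of 0.76 and 0.72 (Cdca3 at 0.48 without IgG replicate 2) and overlapping groups, and are named after their values were seen. The other lower gene, Pimreg, is likewise named after its values were seen, since its groups overlapped.

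Of the 18 regulators, 17 were abundant enough to test, and their median log2 fold change was 0.00, with 8 above 0. Beside 6.22% higher and 6.05% lower over all tested genes, none was higher at an unadjusted limma p under 0.05 and 1 was lower. This was Tfdp2, a dimer partner of E2F factors on chromosome 9, named after its values were seen. Its log2 fold change was -0.69 (limma adjusted p = 0.377). Its call was lost with no filter on low FPKM and with the replicate block.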

How the data were processed

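RNAseq of 6 tumor libraries was re-analysed from the deposited values, with groups and replicate numbers from the sample labels. By the study's methods and the submitters' processing notes, the authors checked reads with FastQC 0.11.9, trimmed them with Cutadapt 3.5 and aligned and counted them with RSEM 1.3.1 on a Bowtie2 2.4.1 index of mm10. The authors deposited FPKM for 54532 Ensembl gene IDs per tumor, and how FPKM was made from the counts is not given in the sources used here. The study's own test ran on counts, which were not used here.

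Symbols, exon lengths and chromosomes came from GENCODE release M21 (GRCm38), and promoters from a RefSeq table on GRCm38.p6. FPKM times exon length gave whole reads for 97.0% to 97.3% of the values above 0 in each tumor (tolerance 0.1). FPKM was divided by median-of-ratios factors (1.00 to 1.01), 1 was added and log2 taken, and the 15069 genes with a mean deposited FPKM of at least 0.5 entered limma (version 3.58.1, under R 4.3.3, lmFit, eBayes with an intensity trend, two-sided, Benjamini-Hochberg adjustment over all of them). The 95% intervals are those of limma. Single genes were also compared by an exact two-sided permutation test. The limma step was tested on simulated data. Tables and figures were made in Python 3.11.15 (with pandas 2.3.3). No tumors had identical profiles.

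The members, gene lists, motifs and tests were chosen with earlier results of these data known, so that no list has a p-value of its own. All members are named, and of the other lists the genes with an unadjusted p under 0.05 whose groups do not overlap, at most 8 a list, with the exceptions stated. The alternatives were a pseudocount of 0.1, no filter or a limit of 2 FPKM, quantile normalization, unscaled FPKM, no trend in eBayes, voom on recovered reads, a replicate block, and each tumor omitted in turn. For levels they were also the median over genes, the transcription factors counted with mitosis, and members of some chromosomes left out, of which the set with chromosomes 2 and 8 was chosen after seeing the data. Pathway, imaging and flow cytometry data of the study were not analysed here.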

Additional observations from a re-analysis of the deposited data

How the results depend on the processing

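Outside the leave-one-out sets, 8 alternatives were run for each member, and the log2 fold change of 1 member changed sign: Pcna, at -0.13 with quantile normalization. Members called higher at an unadjusted limma p under 0.05 numbered 2 with no filter on low FPKM, beside 1205 of all genes in that fit. They numbered 2 with voom on recovered reads, which covered 41 members, beside 863 of all genes. With the replicate block they numbered 0, beside 918 of all genes. Counts this small are no result about the members. Mcm2 lost its call under the block (an unadjusted limma p of 0.0510), and Mcm7 gained one with no filter and with voom. Whether the replicate numbers pair the tumors cannot be decided from these values. The correlations of same-numbered tumors' deviations from their group means were -0.16, 0.01 and 0.19. Those of differently numbered tumors ran from -0.26 to 0.24. With 3 tumors a group the deviations sum to 0, so that these correlations depend on each other. The block gave 918 higher and 807 lower genes where the fit without it gave 937 and 911. With voom, 1 gene had an adjusted p under 0.05. Lower genes at an unadjusted p under 0.05 numbered 1 among the other replication genes without the trend. Among the other mitosis genes they numbered 0 with no filter and with quantile normalization, and 1 with a mean FPKM of at least 2, with the replicate block and with voom. Among the E2F, pocket protein and MuvB genes they numbered 0 with no filter and with the replicate block. Over all genes, those lower numbered 885 without the trend, 1096 with no filter and 910 with quantile normalization. They numbered 713 with a mean FPKM of at least 2, 807 with the block and 965 with voom. Mitosis promoters with CHR letters, and those with CHR and CCAAT, each numbered 8 when the search was kept to bases before the start. Over the whole window they numbered 17 and 16, and replication promoters with CHR letters numbered 3 in both searches. The CHR matches lost reached into the 50 bases after the start.

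Leaving out each tumor in turn, with the group of 2 assumed to vary like the other, members called higher ranged from 0 (without IgG replicate 2, anti-PD-1 replicate 1 or anti-PD-1 replicate 2) to 7 (without anti-PD-1 replicate 3), beside 3.31%, 5.78%, 5.46% and 4.38% of all genes in the same fits, and members above 0 from 21 (without IgG replicate 2) to 40. Over all genes, those higher at an unadjusted p under 0.05 ranged from 498 to 1268 and those lower from 459 to 1419, with the 1.5-fold limit from 369 to 1000 and from 388 to 1242, and those with an adjusted p under 0.05 from 0 to 12 (without IgG replicate 1). Other replication genes called higher ranged from 0 to 6 and lower from 1 to 3. Other mitosis genes called higher ranged from 1 to 9, lower from 0 to 2 and above 0 from 34 to 67. Of the E2F, pocket protein and MuvB genes, those called higher ranged from 0 to 1, lower from 0 to 2 and above 0 from 4 to 9. Of all genes in the same fits, 3.31% to 8.41% were higher and 49.4% to 51.7% were above 0. The mitosis difference between the groups ranged from -0.13 (without IgG replicate 2) to 0.34, and was also below 0, at -0.08, without anti-PD-1 replicate 2. The log2 fold change changed sign for 21 members in at least 1 of these sets. The ranges were Pcna from -0.12 to 0.16, Rrm1 from -0.050 to 0.34, Gins2 from -0.11 to 0.17, Cdt1 from -0.17 to 0.22, Top2a from -0.12 to 0.42, Ccna2 from -0.12 to 0.34, Ccnb1 from -0.092 to 0.38. They were also Bub1 from -0.14 to 0.36, Bub1b from -0.094 to 0.53, Plk1 from -0.044 to 0.61, Cdc20 from -0.37 to 0.15, Kif11 from -0.21 to 0.28, Kif20a from -0.010 to 0.51, Kif23 from -0.31 to 0.12. The others were Cenpe from -0.33 to 0.13, Cenpf from -0.32 to 0.083, Tpx2 from -0.25 to 0.39, Nusap1 from -0.39 to 0.13, Ube2c from -0.085 to 0.59, Ndc80 from -0.13 to 0.24, Foxm1 from -0.13 to 0.44. The cause of these changes was not tested. At the depth of these libraries, 41 members had at least 109 recovered reads in every tumor, and counting error limits them less than it limits genes near the floor.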
